A study of Mus musculus with 5 samples.

Results

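The genes described here are 8 of the 30046 features of a bulk RNA-seq count table of mouse bone marrow stroma: *Ly6a*, *Thy1*, *Nt5e*, *Cd200*, *Nes*, *Cd44*, *Cd34* and *Grem1*. They were chosen by name, as genes whose products are used to sort or trace skeletal stem and progenitor cells, and each was found in the table by its Ensembl identifier. All 8 reached 1 CPM (counts per library total, scaled by TMM where values are printed) in 2 or more libraries, the lower filter used here, and 4 of them (*Nt5e*, *Cd200*, *Cd44* and *Grem1*) reached 10 CPM in 2 or more libraries, the main filter.

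The libraries are 3 of Dlx5CE-E12.5 cells and 2 of Fgfr3CE-E12.5 cells, sorted as Cxcl12-GFP high, tdTomato+ cells from femurs at P21 after 1 dose of tamoxifen at E12.5, with the distal growth plates removed. Donors of the former carried Cxcl12(GFP/+), Dlx5(CreER/+) and R26R(tdTomato/+), and donors of the latter carried Cxcl12(GFP/+), Fgfr3-iCreER and R26R(tdTomato/+), so that GFP replaced 1 *Cxcl12* allele in both. Dlx5-creER was used to mark fetal perichondrial cells and Fgfr3-creER, a transgene on an artificial chromosome, to mark fetal chondrocytes. Cells of littermates were pooled by genotype, purity after the sort was not determined, and the study's methods name no antibody gate for this sort. By those methods the lineages were also sequenced on different instruments with different read types, whereas the series design text gives only a HiSeq, for both lineages. If the methods hold, instrument and read type cannot be told apart from lineage. The comparison asks whether marrow stromal cells of perichondrial and of chondrocyte origin differ in these markers.

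Skeletal stem and progenitor cells line the marrow, growth plate and periosteum, and no single protein defines them. They are sorted with combinations of antigens. In mice, SCA1 (*Ly6a*) is paired with PDGFRα, CD200 with integrin αV, and the absence of THY1 is used to set earlier cells apart from more committed ones. CD73 (*Nt5e*) and CD44 are classical antigens of cultured stromal cells, while nestin and gremlin 1 reporters trace perivascular and metaphyseal stroma. Several of these products are not particular to the skeleton. SCA1 and CD34 also mark blood progenitors and endothelium, THY1 marks T cells and neurons, CD44 is on most leukocytes, and nestin is found in vessel walls and nerve. Nestin is an intracellular filament and gremlin 1 is secreted, so neither is a surface protein.

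The total counts were between 22035650 and 32563758 in the Dlx5CE-E12.5 libraries and between 56355203 and 58166285 in the Fgfr3CE-E12.5 libraries, at which 3 counts correspond to between 0.0473 and 0.141 CPM. No pair of libraries was alike within sampling noise. Of 10088 genes tested, 1318 were higher in Dlx5CE-E12.5 cells and 1653 in Fgfr3CE-E12.5 cells, where a call needed an adjusted p under 0.05 (quasi-likelihood test of edgeR, Benjamini-Hochberg) and a fold change above 1 on the log2 scale in either direction. The split was 1009 to 1985 when libraries were scaled by their totals alone. That scaling shifted the median log2 fold change of all genes to 0.22 from 0.01. With a trend on GC content removed the split was 1696 to 1406 and the median -0.17. With a trend on transcript length removed the median was -0.19.

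Of the 8 genes, 2 were called higher in Dlx5CE-E12.5 cells (*Thy1* and *Grem1*), 1 was called higher in Fgfr3CE-E12.5 cells (*Nt5e*), and 5 were not called. In the background, 13.1% of the 10088 genes passing the main filter were called higher in Dlx5CE-E12.5 cells and 16.4% in Fgfr3CE-E12.5 cells, and for the 13225 genes passing the lower filter the shares were 12.9% and 16.6%. For each of the 8 genes the libraries of the lineages did not overlap, with 3 above in Dlx5CE-E12.5 cells and 5 above in Fgfr3CE-E12.5 cells. This held for 66.6% of the 13225 genes. *Thy1* and *Nt5e* passed their filter only through the lineage in which they were higher, and a gene that passes in this way had to differ. The same was so for *Nog*, *Adora2a*, *Entpd3*, *Has1*, *Has2*, *Has3*, *Cemip*, *Des*, *Synm*, *Mcam*, *Pdpn*, *Ly6g*, *Cd59a*, *Dpp4*, *Cd55*, *Ptprb* and *Mbp* among the genes called below. It was also so for *Acta2*, *Tagln*, *Cspg4*, *Cd3d*, *Cd28* and *Vav1*, counted below in the calls of the mural, T cell and leukocyte lists. For blood progenitor and chondrocyte genes it is stated with their lists. The median log2 fold change of the 8 genes, Fgfr3CE-E12.5 over Dlx5CE-E12.5 cells, was 0.72. In bulk RNA of this kind, fewer cells expressing a gene and less RNA per cell cannot be told apart.

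**Figure D1:**
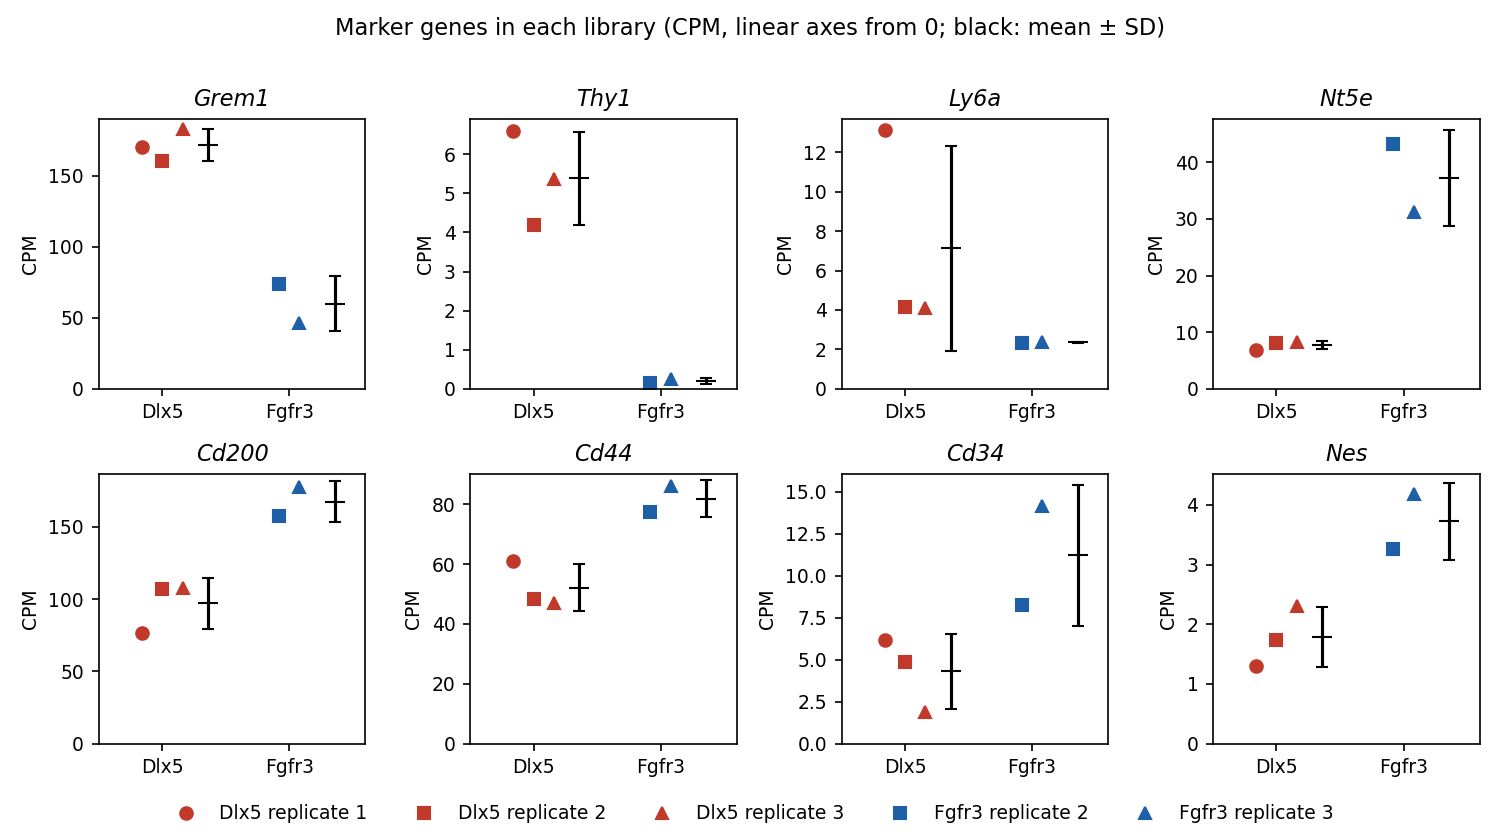
CPM of each gene on a linear axis from 0, with 1 symbol per library (red, Dlx5CE-E12.5; blue, Fgfr3CE-E12.5) and the mean ± SD of each lineage in black. *Grem1*, *Thy1* and *Ly6a* were above in all 3 Dlx5CE-E12.5 libraries and the other 5 genes in both Fgfr3CE-E12.5 libraries, with 1 Dlx5CE-E12.5 library far above the others for *Ly6a*.

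Sequences upstream of some of these genes are given first, and a link between them and the values was not tested. The 250 bases upstream of the RefSeq start are shown for *Grem1* and *Cd200*, the most abundant per length in one lineage each and different in opposite directions (RefSeq, GRCm38.p6). The *Grem1* window is chr2:113758649-113758898 and the *Cd200* window chr16:45409054-45409303, both on the minus strand, and each is written 5′ to 3′ with motif matches in capitals. The motifs searched on both strands were CCAAT, the GC box GGGCGG, the TATA box TATAAA, the core of RUNX sites TGTGGT, and the palindrome of EBF sites.
Grem1: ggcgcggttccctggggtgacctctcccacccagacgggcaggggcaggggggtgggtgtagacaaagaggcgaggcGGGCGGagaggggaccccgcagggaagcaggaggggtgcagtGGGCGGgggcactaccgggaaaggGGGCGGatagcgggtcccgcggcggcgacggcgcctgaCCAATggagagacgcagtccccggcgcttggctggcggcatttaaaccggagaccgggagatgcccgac
Cd200: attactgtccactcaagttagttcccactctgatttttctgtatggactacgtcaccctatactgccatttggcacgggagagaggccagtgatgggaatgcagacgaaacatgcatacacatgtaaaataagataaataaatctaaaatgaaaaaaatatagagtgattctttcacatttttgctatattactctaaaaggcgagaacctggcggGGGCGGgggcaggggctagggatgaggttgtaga
The *Grem1* window held 3 GC boxes and 1 CCAAT, with 24 CpG and 72% G or C. The *Cd200* window held 1 GC box, 6 CpG and 42.4% G or C. Across 32851 promoter windows of the same length, GGGCGG was present in 32.7% and CCAAT in 33.8%, and the medians were 6 CpG and 52.4% G or C, so both motifs are common and only the *Grem1* window lay above the upper quartile for CpG, 16. The TATA, RUNX and EBF motifs, present in 12.4%, 14% and 0.779% of windows, had no match in either.

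A different kind of sequence bears on *Ly6a*. It lies at chr15:74994877-74998031, in a cluster of related genes, and 19% of its 50-base windows (246 of 1297) also occur in transcripts of other genes, 195 of them in *Ly6c1* at chr15:75044018-75048830 (GENCODE M21, GRCm38). The first 90 coding bases of the pair are shown as the most alike stretch of their coding alignment, with the 4 differing bases in capitals. The longest identical run in that alignment was 45 bases, so the stretch holds none of the shared 50-base windows.
Ly6a: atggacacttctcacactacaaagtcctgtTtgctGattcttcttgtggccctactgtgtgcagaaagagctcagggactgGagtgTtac
Ly6c1: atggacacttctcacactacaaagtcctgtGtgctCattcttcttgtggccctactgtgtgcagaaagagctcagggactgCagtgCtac
Over the aligned coding sequence, *Ly6c1* was 77.9% identical to *Ly6a*, *Ly6c2* 83.5% and *Ly6i* 86.3%, the last with an unbroken run of 80 identical bases. How reads that match several of these genes were counted is not given in the sources used here (HTSeq is named there without a role), so the *Ly6a* values below are uncertain to that extent. Of the other 7 genes, *Thy1*, *Cd200*, *Nes* and *Cd44* shared no 50-base window with another gene, and *Nt5e*, *Grem1* and *Cd34* shared 0.128%, 1.51% and 2.14%.

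*Grem1* encodes gremlin 1, a secreted antagonist that binds BMP2, BMP4 and BMP7 and keeps them from their receptors (chr2:113746164-113758646, minus strand). Its CPM was 170.5, 161 and 183 in Dlx5CE-E12.5 replicates 1, 2 and 3 and 73.5 and 46.1 in Fgfr3CE-E12.5 replicates 2 and 3 (numbers of the labels). The Dlx5CE-E12.5 libraries lay close together and all above the Fgfr3CE-E12.5 libraries, which differed more from each other. *Grem1* was 2.87-fold higher in Dlx5CE-E12.5 cells, with a log2 fold change of -1.52 (SE 0.22, adjusted p = 0.00156 by edgeR's quasi-likelihood test).

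Other genes of the same ligand system were taken from a written list of 12, of which 11 were in the table and 8 passed the main filter. Among these, 4 were called higher in Dlx5CE-E12.5 cells and 1 in Fgfr3CE-E12.5 cells, with a median log2 fold change of -0.27. *Bmp4*, a ligand that gremlin 1 binds, was 403, 295 and 274 CPM in Dlx5CE-E12.5 cells and 73.6 and 60.2 in Fgfr3CE-E12.5 cells (log2 fold change -2.28, SE 0.22, edgeR adjusted p = 0.000336). Thus the ligand and its antagonist were both higher in the same lineage. *Bmp2* was 0.66 higher in Fgfr3CE-E12.5 cells on the log2 scale (SE 0.16), under the fold threshold, and *Bmp7* had 0 counts in all Dlx5CE-E12.5 libraries and at most 1.18 CPM in Fgfr3CE-E12.5 cells.

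The BMP antagonists divided by lineage. *Chrdl1*, a chordin-like antagonist, was 1399.6 to 1874 CPM in Dlx5CE-E12.5 cells and 324 and 77.2 in Fgfr3CE-E12.5 cells (log2 fold change -2.98, SE 0.59). *Bmper* and *Fstl1* were also higher in Dlx5CE-E12.5 cells, by 1.28 (SE 0.41) and 1.19 (SE 0.26) on the log2 scale. *Nog*, which encodes noggin, went the other way, from 0.261 to 1.87 CPM in Dlx5CE-E12.5 cells to 11.8 and 11.1 in Fgfr3CE-E12.5 cells (log2 fold change 3.80, SE 0.72, edgeR adjusted p = 0.00492). Without Fgfr3CE-E12.5 replicate 3, and likewise with library totals alone, the list held 2 calls in each direction.

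*Thy1* encodes THY1 (CD90), a small surface glycoprotein on a lipid anchor (chr9:44043384-44048579). It was low in all libraries, failed the main filter and passed the lower one only through the Dlx5CE-E12.5 libraries. The reads behind it were 202, 89 and 135 counts in Dlx5CE-E12.5 replicates 1, 2 and 3 and 9 and 16 counts in Fgfr3CE-E12.5 replicates 2 and 3, or 6.59, 4.19 and 5.37 CPM against 0.146 and 0.252 CPM. Even the highest Fgfr3CE-E12.5 library was far below the lowest Dlx5CE-E12.5 library, although the Fgfr3CE-E12.5 libraries were the deeper ones. The gene was 27.0-fold higher in Dlx5CE-E12.5 cells (log2 fold change -4.76, SE 0.54, adjusted p = 0.000692 by edgeR's quasi-likelihood test at the lower filter).

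Because THY1 is also a T cell protein, T cell genes were read beside it. Their summed level went the other way, 6.32 to 14.1 CPM in Dlx5CE-E12.5 cells and 24.4 and 37.6 in Fgfr3CE-E12.5 cells, and of 8 markers 5 passed the lower filter and 4 were called higher in Fgfr3CE-E12.5 cells. Of these 4, 2 (*Cd3d* and *Cd28*) had passed the filter only through the Fgfr3CE-E12.5 libraries. *Cd3e*, a chain of the T cell receptor complex, was at most 0.694 CPM and *Cd8a* at most 0.0979 CPM in any library. Fibroblast genes of the adventitia and periosteum, where THY1 is also found, were mixed. Of 12 in the list 6 passed the main filter, with *Has1* and *Col3a1* called higher in Dlx5CE-E12.5 cells and *Dpp4* and *Cd55* in Fgfr3CE-E12.5 cells, the latter count being 1 without either Fgfr3CE-E12.5 library. *Pi16*, which marks adventitial fibroblasts, was 4.73 to 6.16 CPM in Dlx5CE-E12.5 cells and 8.37 and 37.6 CPM in Fgfr3CE-E12.5 cells.

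*Ly6a* encodes SCA1, a lipid-anchored surface protein. Its counts were 403, 88 and 103 in Dlx5CE-E12.5 replicates 1, 2 and 3 and 144 and 151 in Fgfr3CE-E12.5 replicates 2 and 3, or 13.1, 4.14 and 4.10 CPM against 2.34 and 2.38 CPM. Dlx5CE-E12.5 replicate 1 stood 3.21-fold above the lowest of its group, and the other 2 libraries were only moderately above the Fgfr3CE-E12.5 libraries, which were nearly equal. The mean ± SD was 7.13 ± 5.21 CPM (n = 3) and 2.36 ± 0.0297 CPM (n = 2). The log2 fold change of -1.62 (SE 0.60) did not pass the test (adjusted p = 0.0642 by edgeR's quasi-likelihood test). It was -0.82 without Dlx5CE-E12.5 replicate 1, and *Ly6a* was called without Dlx5CE-E12.5 replicate 3 (log2 fold change -1.90, edgeR adjusted p = 0.0489).

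The same library was high for several other genes. *Ly6c1*, the gene that shares most sequence with *Ly6a*, was 5.48 CPM in Dlx5CE-E12.5 replicate 1, 0.753 and 0.835 in the other 2 libraries and 4.18 and 4.70 in Fgfr3CE-E12.5 cells. *Ly6d* was 56.3 CPM there against 21.5 and 25.1, and the pericyte gene *Rgs5* was 228 CPM against 63.0 and 55.8. The endothelial gene *Cdh5* was 7.44 CPM against 3.86 and 1.63. The summed endothelial list was 78.8 CPM in that library, within the range of 55.5 to 89.1 CPM over the Dlx5CE-E12.5 libraries, and the blood progenitor list was 57.6 CPM against 44.5 and 43.6. Other lists were also highest there among the Dlx5CE-E12.5 libraries, the T cell list at 14.1 CPM against 7.06 and 6.32 and the leukocyte list at 748 against 640 and 561. The mural list was 473 CPM against 353 and 346, but it holds *Rgs5*, whose excess there was larger than that of the summed list. The rest of the mural list was therefore not highest in that library. The part of the listed cell types in the *Ly6a* value was not tested.

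Within the Ly6 family, the calls were in the direction opposite to the *Ly6a* value. Of 15 listed, 12 were in the table and 6 passed the main filter, of which 4 were called higher in Fgfr3CE-E12.5 cells (2 without Fgfr3CE-E12.5 replicate 3). These were *Ly6g*, a neutrophil marker, at a log2 fold change of 3.64 (SE 0.63), *Plaur*, the urokinase receptor, at 2.77 (SE 0.42), *Ly6c2*, a marker of monocytes, at 1.18 (SE 0.28), and *Cd59a*, a complement inhibitor, at 21.8, 7.82 and 8.03 CPM against 35.1 and 36.2 CPM. *Ly6e*, the most abundant at 114 to 241 CPM, was not called (log2 fold change 0.66, SE 0.24). *Ly6i* was at most 0.221 CPM in any library.

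*Nt5e* encodes CD73, the surface enzyme that turns AMP into adenosine (chr9:88327197-88372092). Its CPM was 6.88, 8.05 and 8.23 in Dlx5CE-E12.5 replicates 1, 2 and 3 and 43.2 and 31.2 in Fgfr3CE-E12.5 replicates 2 and 3. No Dlx5CE-E12.5 library came near the Fgfr3CE-E12.5 libraries, and the Dlx5CE-E12.5 libraries differed by at most 1.20-fold. *Nt5e* was 4.82-fold higher in Fgfr3CE-E12.5 cells, with a log2 fold change of 2.27 (SE 0.21, adjusted p = 0.000288 by edgeR's quasi-likelihood test).

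The enzymes on either side of CD73 did not all follow it. Of 14 genes for extracellular nucleotides and adenosine, 8 passed the main filter, 1 was called in each direction and the median log2 fold change was 0.13. *Entpd1*, which encodes the enzyme CD39 that supplies AMP, was 18.9 to 24.0 CPM in Dlx5CE-E12.5 cells and 9.80 and 17.6 in Fgfr3CE-E12.5 cells (log2 fold change -0.67, SE 0.29, edgeR adjusted p = 0.0938). *Alpl*, alkaline phosphatase, which can also release adenosine from AMP, was higher in Fgfr3CE-E12.5 cells, 682 to 945 CPM against 2637 and 2236 (log2 fold change 1.61, SE 0.20). *Entpd3*, tested at the lower filter, was higher there too (log2 fold change 3.15, SE 0.67). Among adenosine receptors, *Adora2a* was higher in Dlx5CE-E12.5 cells, 16.2 to 17.9 CPM against 2.29 and 3.79 (log2 fold change -2.49, SE 0.30, edgeR adjusted p = 0.000748), and *Adora2b*, *Adora3* and *Adora1* were at most 2.54, 0.962 and 0.119 CPM. Without Fgfr3CE-E12.5 replicate 3 the count called higher in Dlx5CE-E12.5 cells was 2.

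*Cd200* encodes CD200, a surface glycoprotein that calms myeloid cells through its receptor CD200R (chr16:45382135-45409053). Its CPM was 76.9, 107 and 108 in Dlx5CE-E12.5 replicates 1, 2 and 3 and 158 and 178 in Fgfr3CE-E12.5 replicates 2 and 3. Both Fgfr3CE-E12.5 libraries were above all Dlx5CE-E12.5 libraries. The difference was 1.73-fold (log2 fold change 0.79, SE 0.18, adjusted p = 0.0104 by edgeR's quasi-likelihood test), past the p threshold and under the fold threshold. The receptor gene *Cd200r1* was low, 0.716 to 1.18 CPM against 2.62 and 4.21, and was called higher in Fgfr3CE-E12.5 cells at the lower filter (log2 fold change 1.73, SE 0.49).

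*Cd44* encodes the main receptor for hyaluronan (chr2:102811141-102901665, minus strand), with 61.1, 48.4 and 47.0 CPM in Dlx5CE-E12.5 replicates 1, 2 and 3 and 77.4 and 86.2 CPM in Fgfr3CE-E12.5 replicates 2 and 3. The groups did not overlap, although Dlx5CE-E12.5 replicate 1 lay nearer the Fgfr3CE-E12.5 libraries. Like *Cd200*, it passed the p threshold but not the fold threshold, at 1.57-fold (log2 fold change 0.65, SE 0.16, adjusted p = 0.0152 by edgeR's quasi-likelihood test). Both genes were called when the fold threshold was dropped. By the same test, *Cd44* did not pass the p threshold without Dlx5CE-E12.5 replicate 2, without replicate 3 of that lineage or without Fgfr3CE-E12.5 replicate 3 (adjusted p = 0.0648, 0.0571 and 0.0584, edgeR), nor *Cd200* with a trend on transcript length removed (log2 fold change 0.46, adjusted p = 0.0692).

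Some genes around CD44 had larger fold changes than *Cd44* itself. Of 9 genes for its ligands and for hyaluronan turnover, 6 passed the main filter, 1 was called higher in Dlx5CE-E12.5 cells (2 without Fgfr3CE-E12.5 replicate 2), 2 in Fgfr3CE-E12.5 cells, and the median log2 fold change was -0.44. *Spp1*, which encodes osteopontin, a bone matrix protein that CD44 can bind, was 714 to 1242 CPM in Dlx5CE-E12.5 cells and 5273 and 5948 in Fgfr3CE-E12.5 cells (log2 fold change 2.61, SE 0.27, edgeR adjusted p = 0.000391). *Hmmr*, another hyaluronan receptor that is also a spindle protein of dividing cells, was 10.5 to 16.1 CPM against 60.2 and 61.4 (log2 fold change 2.12, SE 0.21). The hyaluronan synthases split, with *Has1* at 8.45 to 18.6 CPM against 3.04 and 2.97 (log2 fold change -2.17, SE 0.38) and *Has2* at 0.718 to 1.47 CPM against 14.01 and 3.57 (log2 fold change 3.12, SE 0.65, lower filter). *Has3* was higher in Dlx5CE-E12.5 cells and *Cemip*, which degrades hyaluronan, in Fgfr3CE-E12.5 cells, both at the lower filter.

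*Cd34* encodes a sialomucin of blood progenitors, endothelium and some stromal cells (chr1:194938819-194961279). Its counts were 190, 103 and 47 in Dlx5CE-E12.5 replicates 1, 2 and 3 and 507 and 898 in Fgfr3CE-E12.5 replicates 2 and 3, or 6.20, 4.85 and 1.87 CPM against 8.24 and 14.2 CPM. Spread was wide in both groups, 3.32-fold among Dlx5CE-E12.5 libraries and 1.72-fold between the Fgfr3CE-E12.5 libraries, and the gap between the groups was small. The log2 fold change of 1.35 (SE 0.50) did not pass the test (adjusted p = 0.0645 by edgeR's quasi-likelihood test). It was 0.91 without Fgfr3CE-E12.5 replicate 3, and it was called without Dlx5CE-E12.5 replicate 1 (1.72, edgeR adjusted p = 0.0432). An antisense gene, *Gm16897*, overlaps 148 exonic bases of *Cd34*, and the sources used here do not give a strand setting for the counting.

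Blood and vessel genes were read beside *Cd34*. All 5 blood progenitor markers that passed the main filter, of 10 listed, were higher in Fgfr3CE-E12.5 cells, with a summed level of 43.6 to 57.6 CPM in Dlx5CE-E12.5 cells and 212 and 344 CPM in Fgfr3CE-E12.5 cells. *Kit*, the receptor of stem cell factor, was 4.57 to 9.36 CPM against 61.4 and 40.3. Of these 5, 4 had passed the filter only through the Fgfr3CE-E12.5 libraries. *Mecom* and *Hlf*, transcription factor genes of the list, were lower in value in Fgfr3CE-E12.5 cells and were not called (log2 fold changes -1.12, SE 0.54, and -0.40, SE 0.32), and *Flt3* and *Slamf1*, further receptors of early progenitors, were at most 6.72 and 0.331 CPM. The summed leukocyte list, in which 14 of 15 genes were called higher in Fgfr3CE-E12.5 cells, was 561 to 748 CPM against 1789.5 and 3803. The leukocyte sum was 2.13-fold higher in Fgfr3CE-E12.5 replicate 3 than in replicate 2. The endothelial list did not follow, with 55.5 to 89.1 CPM against 63.1 and 87.4. *Pecam1* and *Plvap*, which passed the main filter, were not called (log2 fold changes 0.94, SE 0.33, and 0.08, SE 0.37), and *Cdh5* and *Ptprb* among 13 genes at the lower filter called higher in Dlx5CE-E12.5 cells. Scaled by library totals alone, 1 endothelial gene was called higher in Fgfr3CE-E12.5 cells. The part of blood cells in the *Cd34*, *Cd44* and *Cd200* values was not tested.

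A list of 8 genes held binding partners of CD200, THY1 or CD34 together with sialomucins like CD34 (*Podxl*, *Podxl2* and *Emcn*). Of these genes, 5 passed the main filter and 4 were called higher in Fgfr3CE-E12.5 cells, with a median log2 fold change of 2.19. *Itgam* and *Itgb2*, the chains of a leukocyte integrin that binds THY1, had log2 fold changes of 2.37 (SE 0.33) and 2.29 (SE 0.30), and *Itgb3*, a chain of another integrin that binds THY1, had 2.19 (SE 0.28). *Itgam* and *Itgb2* are genes of leukocytes, and *Itgb2* is itself 1 of the 15 genes of the leukocyte list. The sialomucin genes *Podxl* and *Emcn*, relatives of *Cd34* in endothelium, were not called.

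*Nes* encodes nestin, an intermediate filament of neural progenitors and of perivascular stroma (chr3:87971078-87980451). It was the least abundant of the 8 genes in Dlx5CE-E12.5 cells, with 40, 37 and 58 counts in replicates 1, 2 and 3, or 1.30, 1.74 and 2.31 CPM. In Fgfr3CE-E12.5 replicates 2 and 3 it had 201 and 265 counts, or 3.27 and 4.18 CPM. The Fgfr3CE-E12.5 libraries were above the others by a margin near the spread within the groups. The log2 fold change of 1.04 (SE 0.44) did not pass the test (adjusted p = 0.0938 by edgeR's quasi-likelihood test). It was called when all features were tested (1.17, edgeR adjusted p = 0.0404) and with library totals alone (1.27, edgeR adjusted p = 0.0478). Both settings moved the log2 fold changes of all 8 genes up.

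Filaments that nestin copolymerizes with went the other way or did not pass. They were listed with *Plec*, a cytolinker gene, and *Sncg*, a synuclein gene, which do not encode such filaments. Of the 5 genes in this list 4 passed the main filter and 2 were called higher in Dlx5CE-E12.5 cells. They were *Des* (desmin), at 23.6 to 49.95 CPM against 6.99 and 5.59 (log2 fold change -2.45, SE 0.36), and *Synm* (synemin), at 40.7 to 43.4 CPM against 8.76 and 5.46 (log2 fold change -2.57, SE 0.25, edgeR adjusted p = 0.000307). *Vim*, the most abundant partner, was 531 to 617 CPM over all 5 libraries (log2 fold change 0.02, SE 0.14). Among mural cell genes, which nestin can accompany, 8 of 10 passed the main filter, 1 was called higher in Dlx5CE-E12.5 cells and 3 in Fgfr3CE-E12.5 cells, with summed levels of 346 to 473 CPM against 438 and 327. Each of these called genes had passed the filter only through the lineage in which it was higher. Of the Schwann and neural genes, 7 of 8 were in the table, 3 passed the main filter and 1, *Mbp*, was called higher in Fgfr3CE-E12.5 cells, while *Sox10*, which defines Schwann cells, was at most 0.163 CPM.

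**Figure D2:**
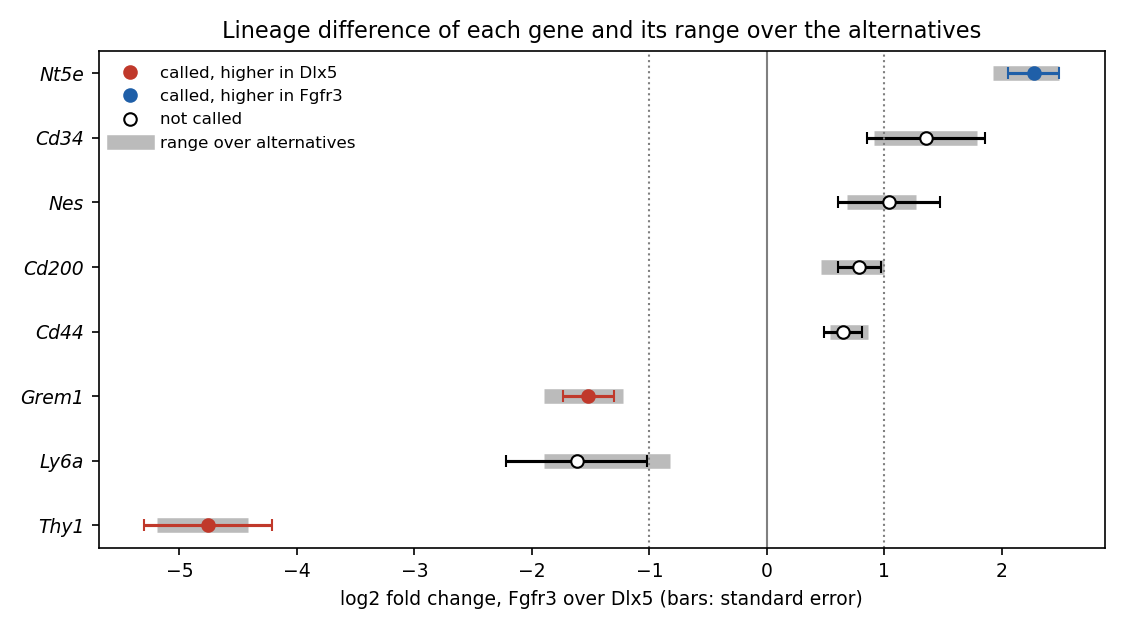
Log2 fold change of each gene, Fgfr3CE-E12.5 over Dlx5CE-E12.5 cells, with its standard error (bars) and its range over 17 alternative settings (grey). Filled symbols were called, open symbols were not, and dotted lines mark the fold threshold of 1 on the log2 scale. The ranges of *Thy1*, *Grem1* and *Nt5e* stay beyond the threshold, while that of *Ly6a* crosses it, from -1.90 to -0.82.

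Compared per length, as RPKM (CPM per kilobase of annotated exon), the order of the 8 genes differed between the lineages. In Dlx5CE-E12.5 cells *Grem1* was highest at 41.3 ± 2.70 RPKM (SD, n = 3), followed by *Cd200* at 29.2 ± 5.27, and their libraries did not overlap. *Cd44* at 7.70 ± 1.14 and *Ly6a* at 5.92 ± 4.32 came next and overlapped. *Thy1* at 1.80 ± 0.400 was above *Nt5e* at 0.898 ± 0.0852, which overlapped with *Cd34* at 0.591 ± 0.304, as *Cd34* did with *Nes* at 0.278 ± 0.0783.

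In Fgfr3CE-E12.5 cells *Cd200* was highest at 50.5 ± 4.24 RPKM (SD, n = 2). *Grem1* at 14.4 ± 4.67 and *Cd44* at 12.1 ± 0.918 followed and overlapped. Then came *Nt5e* at 4.33 ± 0.992, *Ly6a* at 1.96 ± 0.0246 and *Cd34* at 1.54 ± 0.575, of which the last pair overlapped. *Nes* was 0.580 ± 0.101 RPKM. *Thy1* was last at 0.0666 ± 0.0251, where 3 genes lay below it in Dlx5CE-E12.5 cells. Thus *Grem1* and *Cd200* exchanged the first place between the lineages, and *Nt5e* and *Thy1* changed most in rank.

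**Figure D3:**
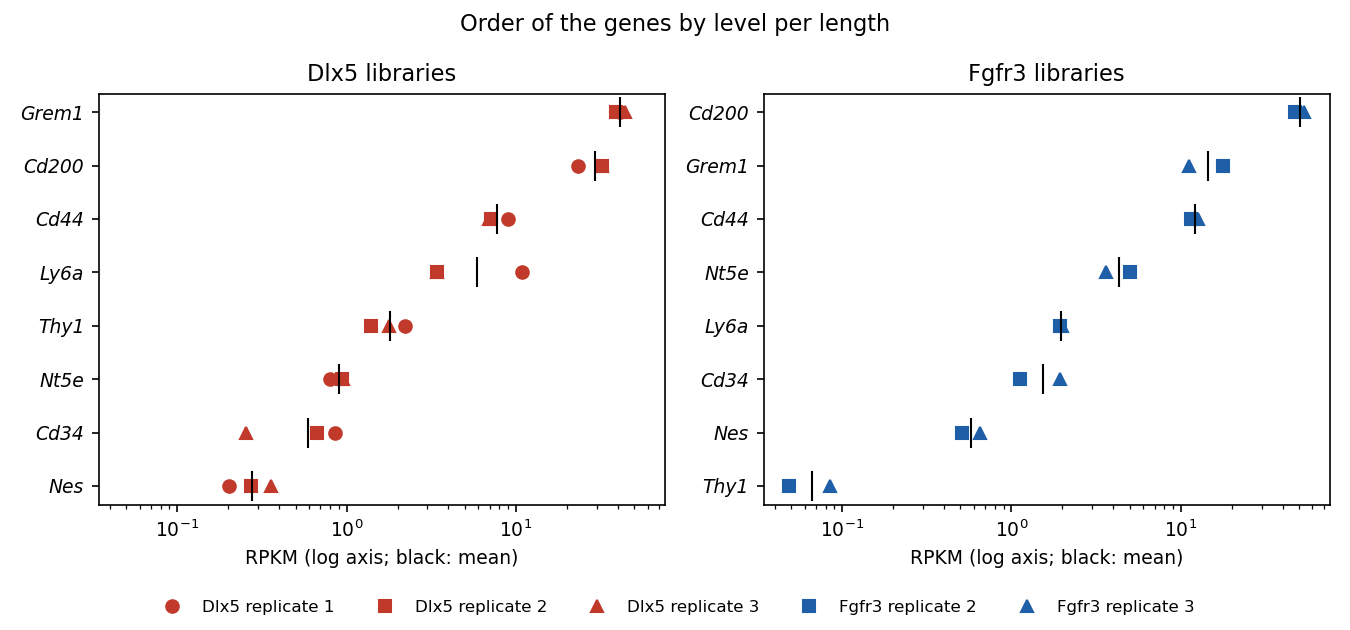
RPKM of each gene on a log axis, ordered by its mean in the lineage shown (left, 3 Dlx5CE-E12.5 libraries; right, 2 Fgfr3CE-E12.5 libraries), with the mean as a black tick. *Cd200* and *Grem1* lead in both panels in opposite order, and *Thy1* falls to the bottom on the right, at a mean of 0.0666 RPKM.

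Further surface antigens used in sorting skeletal stem and progenitor cells were taken from a list of 15, of which 12 passed the main filter, with 3 called in each direction (5 called higher in Dlx5CE-E12.5 cells without Fgfr3CE-E12.5 replicate 2) and a median log2 fold change of -0.26. The partner antigen of SCA1, *Pdgfra*, was 463 to 516 CPM in Dlx5CE-E12.5 cells and 175 and 100.2 CPM in Fgfr3CE-E12.5 cells (log2 fold change -1.84, SE 0.25, edgeR adjusted p = 0.00132). *Vcam1* (log2 fold change -2.04, SE 0.33) and *Eng*, endoglin (log2 fold change -1.37, SE 0.21), differed in the same direction. *Pdpn*, podoplanin, was 1.75 to 2.54 CPM against 0.0975 and 0.237 and was called higher in Dlx5CE-E12.5 cells at the lower filter (log2 fold change -3.74, SE 0.67).

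Higher in Fgfr3CE-E12.5 cells were *Mcam*, the CD146 antigen, *Cd24a* and *Cd9*. *Mcam* was 1.35 to 2.19 CPM in Dlx5CE-E12.5 cells and 18.7 and 19.1 CPM in Fgfr3CE-E12.5 cells (log2 fold change 3.49, SE 0.29, edgeR adjusted p = 0.000174), and *Cd24a* and *Cd9* had log2 fold changes of 1.597 (SE 0.18) and 1.598 (SE 0.16). *Itgav*, the integrin αV chain paired with CD200, was 150.4 to 189 CPM against 165 and 114 and was not called (log2 fold change -0.29, SE 0.20). *Enpep*, the 6C3 antigen of stroma, was not called either (log2 fold change -0.81, SE 0.29, edgeR adjusted p = 0.0547).

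The labelled cell type was checked against genes of CXCL12-abundant reticular cells, and all 14 were present. Their summed level was 51081 to 53597 CPM in Dlx5CE-E12.5 cells and 21378 and 13496 CPM in Fgfr3CE-E12.5 cells, with 10 called higher in Dlx5CE-E12.5 cells and 1, *Foxc1*, in Fgfr3CE-E12.5 cells. The summed level of chondrocyte genes moved the other way. It was 125 to 133 CPM in Dlx5CE-E12.5 cells, most of it *Sox9*. In Fgfr3CE-E12.5 replicates 2 and 3 it was 3179 and 420.0 CPM, most of it *Col2a1*, at 2598 and 343 CPM. Of 8 listed, 2 passed the main filter and 1, *Col2a1*, was called higher in Fgfr3CE-E12.5 cells, as were all 5 tested only at the lower filter. *Col2a1* and 4 of those 5 had passed only through the Fgfr3CE-E12.5 libraries. *Sox9*, the other, was 117 to 124 CPM in Dlx5CE-E12.5 cells and 96.8 and 53.7 CPM in Fgfr3CE-E12.5 cells and was not called (log2 fold change -0.69, SE 0.24, edgeR adjusted p = 0.0536), and without Fgfr3CE-E12.5 replicate 2 the list held 1 call higher in Dlx5CE-E12.5 cells. *Col9a1* and *Col10a1* had 0 counts in every Dlx5CE-E12.5 library.

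The 2 Fgfr3CE-E12.5 libraries therefore differed in content, and the ratio between them varied among the 8 genes. The ratio of replicate 3 to replicate 2 was 0.627 for *Grem1*, 0.721 for *Nt5e* and 1.72 for *Cd34*. *Nes*, *Cd200*, *Cd44* and *Ly6a* had 1.28, 1.13, 1.11 and 1.02. The ratio of 1.73 for *Thy1* rests on 16 and 9 counts and is too imprecise to compare. Among the cell type lists, the ratio was 2.13, 1.62, 1.54 and 1.38 for the leukocyte, blood progenitor, T cell and endothelial lists. It was 1.08, 0.944, 0.745 and 0.631 for the adventitial, Schwann and neural, mural and reticular cell lists. The ratio of 0.132 for the chondrocyte list is that of a sum made mostly of *Col2a1*. No gene was matched to a list. With 2 libraries these ratios are a description. The part of the other cell types in any of the 8 differences was not tested.

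**Figure D4:**
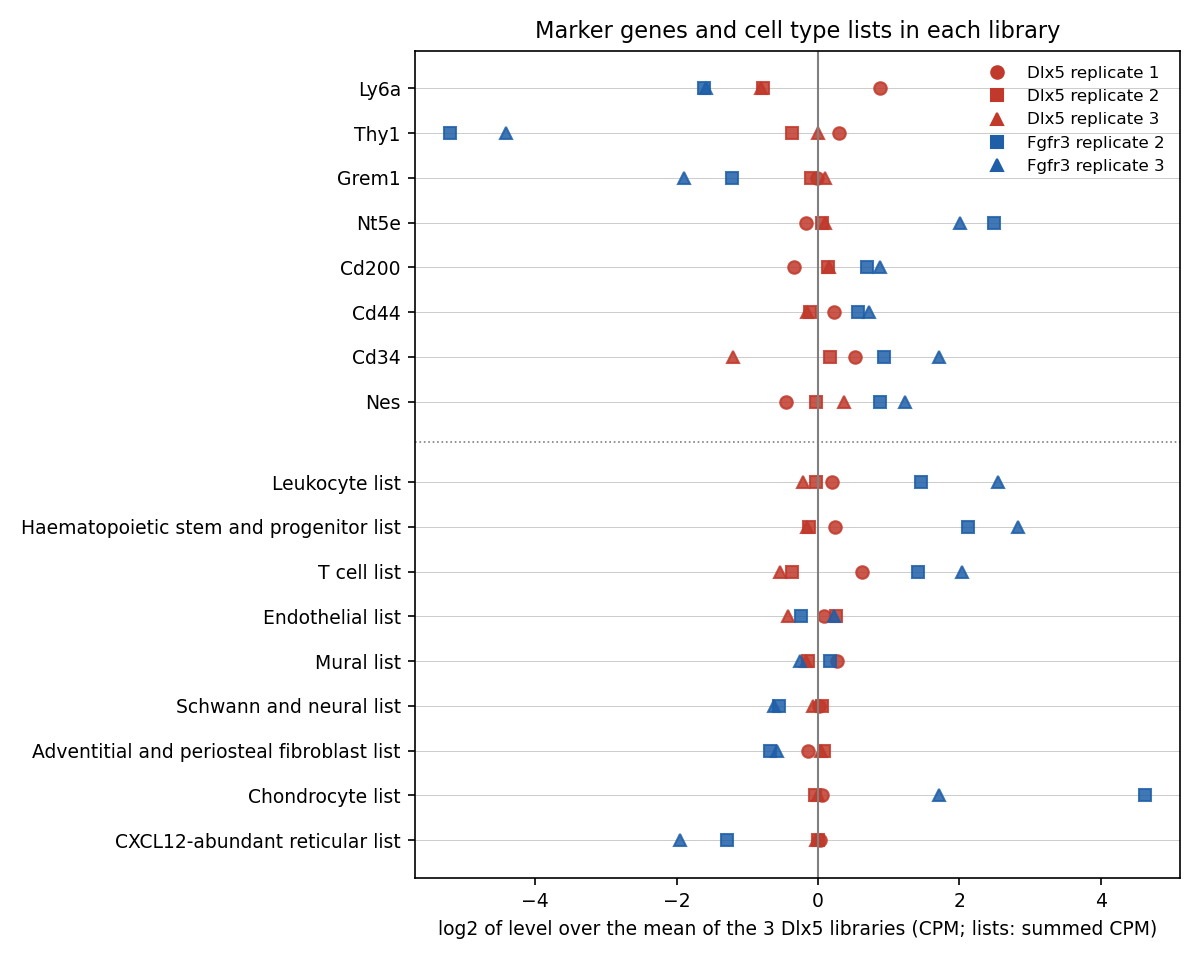
Level of each gene (CPM) and of each cell type list (summed CPM) in every library, as the log2 of its ratio to the mean of the 3 Dlx5CE-E12.5 libraries. The leukocyte, blood progenitor, T cell and chondrocyte lists lie to the right in both Fgfr3CE-E12.5 libraries, the reticular cell list to the left, and the endothelial and mural lists near 0.

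The genes most like each of the 8 were found by the distance between log2 CPM values (with 0.5 added) centred over the 5 libraries, among genes of the same filter. Nearest to *Grem1* were *Srpx*, *Cxcl14* and *Pik3r1*, at distances of 0.122, 0.133 and 0.134. *Nt5e* was nearest to *Rnf103*, *Olfm1* and *Spry1* (0.189 to 0.216), *Cd200* to *Wiz*, *Asnsd1* and *Ddx20* (0.104 to 0.148), and *Cd44* to *Cmpk2*, *Stxbp5* and *Nolc1* (0.074 to 0.0945). Among the genes of the lower filter, *Thy1* was nearest to *Rpl12*, *Gm49325* and *Rpl35* (0.143 to 0.366), *Ly6a* to *Podn*, *Crygs* and *Fbxl21* (0.324 to 0.357), *Cd34* to *Klrk1*, *Svip* and *Ms4a6d* (0.199 to 0.293), and *Nes* to *Asf1a*, *Gm7102* and *B3gnt3* (0.0939 to 0.137). The genes nearest to *Thy1* had log2 fold changes of -3.06, -10.5 and -2.84 in turn, beside -4.76 for *Thy1*. The 0.5 added exceeds the CPM of *Thy1* in both Fgfr3CE-E12.5 libraries, so its likeness to other genes is poorly resolved there. The distance to the nearest gene was greatest for *Ly6a*, at 0.324. Over 5 libraries these likenesses are a description.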

How the data were processed

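Counts of reads per gene were deposited by the authors without normalization, 1 column per library. The study's methods name alignment to mm10 with TopHat and Bowtie2, and the submitters' processing notes list TopHat2 2.0.13 and Bowtie2 2.2.1. Those notes also name HTSeq, with no role, and the strand setting of the counting is not given in the sources used here. Deposited depth-normalized and rlog values were not used. Total counts ranged from 22035650 to 58166285, and with 3 and 2 libraries the number of libraries limits precision. Reads carried no molecular identifiers, so the floor of 3 counts covers counting error only.

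Protein-coding genes and reporter sequences reaching 10 CPM (of the library total, without TMM) in 2 or more libraries entered a fit of edgeR 4.0.16 (R 4.3.3; TMM, quasi-likelihood test, lineage as the only term). Benjamini-Hochberg adjustment ran over 10088 genes, and calls required an adjusted p under 0.05 together with more than 1 unit of log2 fold change. Genes under this filter were read from the same fit at 1 CPM in 2 or more libraries (13225 genes). Standard errors were derived from fold changes and F statistics. RPKM divided CPM by the union of GENCODE M21 exons. Of the table's features, 29965 were found in that annotation and 76 were not. The fit was tested on simulated counts.

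Groups were taken from the sample labels. The shared replicate numbers belong to pools of different genotypes and were not used for pairing. The text names the 8 genes, at most 6 members of each list, the Ly6 family, genes that qualify a statement on a list, and the 3 genes nearest in pattern to each of the 8. Some members of the lists are not reported here by name. The 8 genes, 7 pathway lists and 9 cell type lists were chosen with earlier results of these data known. *Rgs5* and *Ly6d* were named after their values were seen. Sequences came from RefSeq promoter windows (6 of the 8 genes had one) and GENCODE transcripts, aligned with Biopython 1.88. Figures were drawn with matplotlib 3.10.9. The 17 alternatives covered scaling, test, filter, features, a replicate block, each library left out, trends on GC content and transcript length, and the threshold, with DESeq2 1.42.0 as the second tool.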

Additional observations from a re-analysis of the deposited data

How the results depend on the processing

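*Thy1*, *Nt5e* and *Grem1* kept their direction and their call under all 17 alternatives, with log2 fold changes from -5.19 to -4.42, from 1.92 to 2.49 and from -1.89 to -1.22. No fold change of the 8 genes changed direction under them. The number of the 8 genes called higher in Fgfr3CE-E12.5 cells, 1 as reported, was 3 with library totals alone, 3 with all features and 3 with no fold threshold, 2 by edgeR's exact test and 2 by DESeq2's Wald test, and from 1 to 2 with 1 library left out. With no fold threshold the added genes were *Cd200* (0.79) and *Cd44* (0.65), which were otherwise not called. *Cd34* was called with library totals alone (1.58), by the exact test (1.36), by the Wald test (1.36) and with all features (1.49), and ranged from 0.91 to 1.72 with 1 library left out. *Ly6a* was called by the exact test (-1.62), the Wald test (-1.61) and with the GC trend removed (-1.73), and ranged from -1.90 to -0.82 with 1 library left out. *Nes* was called with library totals alone (1.27) and with all features (1.17). Library totals alone and all features moved the log2 fold changes of all 8 genes up, and removing the GC trend moved all 8 down. Removing the trend on transcript length moved *Cd200* to 0.46, in a setting where the median of all genes was -0.19. The cause of these shifts was not tested. Genes called across the table numbered 659 and 1011 when a change above 2-fold was tested, and 2363 and 2517 with no fold threshold, higher in Dlx5CE-E12.5 and Fgfr3CE-E12.5 cells in turn.

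With the replicate number as a block, 2 of the 8 genes were called higher in Fgfr3CE-E12.5 cells, the added one being *Cd34* (1.79, adjusted p = 0.0485 by edgeR's quasi-likelihood test), and no other of the 8 changed its call. The deviations of same-numbered libraries correlated at 0.130 and -0.0527, and the numbers were not taken as pairs.

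Among the lists, library totals alone gave 2 calls in each direction for BMP genes, 2 higher in Fgfr3CE-E12.5 cells for adenosine genes and 1 for endothelial genes. Leaving out 1 Fgfr3CE-E12.5 library gave, for calls higher in Dlx5CE-E12.5 cells, 2 to 4 for BMP genes, 1 to 2 for CD44 genes, 1 to 2 for adenosine genes, 0 to 1 for chondrocyte genes and 3 to 5 for the other sorting antigens. For calls higher in Fgfr3CE-E12.5 cells it gave 1 to 2 for BMP genes, 1 for adventitial genes, 2 to 3 for the Ly6 family and 0 to 1 for Schwann and neural genes. The numbers of calls in the leukocyte, reticular cell and mural lists also changed with 1 Fgfr3CE-E12.5 library left out. Each such fit keeps only 1 library of that lineage. Depth limits *Thy1* in Fgfr3CE-E12.5 cells and *Nes* in Dlx5CE-E12.5 cells, with at most 16 and 58 counts in a library.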
